A study of Mus musculus with 10 samples.

Results

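The genes described here carry or control the sodium that heart muscle cells take up and pump out. They are Atp1b1, Fxyd1, Scn4b, Fgf13 and Ank2, chosen by symbol as sodium channel and sodium pump subunits and their regulators. Earlier results of these data were known when they were chosen. All 5 were found among the 56832 genes of the deposited count table, and all 5 were among the 12115 genes with enough reads to be tested. RNA was sequenced from heart muscle cells of Sprr1a-GFP mice tagged Hetz in the titles (a reporter of Sprr1a, a gene whose product is a small proline-rich protein). Every mouse had a myocardial infarction at 12 weeks of age and gave its heart 5 days later, so no uninjured heart is among the samples. Cells freed by enzyme perfusion were sorted into GFP+ cells, labelled border zone cardiomyocytes, and GFP- cells, labelled as cardiomyocytes of the remote zone. The 5 mice were sampled in pairs of libraries, 1 GFP+ and 1 GFP- from each animal. Mice 17C1 and 17C2 form one identifier series, and mice 21A4, 21A5 and 21A7 another with differently worded titles. The sort, not dissection, defines the zones. The titles of the GFP+ libraries join DAPI-negative with DAPI-positive cells, whereas those of the GFP- libraries name DAPI-negative cells alone. DAPI is a DNA dye that enters cells whose membrane leaks, and its effect cannot be told apart from that of GFP status.

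Sodium rushes into a heart muscle cell through voltage-gated sodium channels at the start of each action potential. The pore is formed by an alpha subunit, beside which sit beta subunits such as the product of Scn4b and intracellular modulators such as the product of Fgf13. The sodium-potassium ATPase then exports sodium. It is built from a catalytic alpha subunit and a beta subunit (Atp1b1) that brings the enzyme to the membrane, and in heart it is restrained by phospholemman, the product of Fxyd1. Ankyrin-B (Ank2) anchors the pump and the sodium-calcium exchanger to the membrane skeleton, and the related ankyrin-G (Ank3) anchors the sodium channel.

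Total counts lay between 12244373 and 38879965 per library, and mitochondrially encoded genes took 35.7% to 91.2% of the GFP+ counts and 9.20% to 61.9% of the GFP- counts. The GFP+ library of 21A7 held the highest of these shares and the GFP- library of the same mouse the lowest. The 19 adult sarcomere genes listed as markers of heart muscle had counts in every library, with 3.86% to 12.2% of the non-mitochondrial GFP+ counts and 1.80% to 11.7% of the GFP- ones. Endothelial markers (8 genes, none at 0 in any library) held a smaller share in the GFP+ library of all 5 mice (0.00668% to 0.0784% against 0.0127% to 0.182%). Fibroblast markers (8 genes) held 0.0377% to 1.41% of the GFP+ and 0.0235% to 4.36% of the GFP- counts. Mesothelial markers (6 genes) held a larger share in the GFP+ library of all 5 mice (0.0147% to 0.0980% against 0.000129% to 0.0581%), with Upk3b, Upk1b, Msln and Krt19 at 0 in the GFP- library of 17C1. Sprr1a, whose reporter set the gate and which is therefore no finding, averaged 235 CPM in GFP+ and 3.44 CPM in GFP- libraries. The part of these other cells in the results below was not tested, apart from a fit with a marker score given beside each gene. In such bulk samples fewer cells of a type and less RNA per cell cannot be told apart. Levels are in CPM, reads of a gene per 1e6 reads after scaling of the libraries by the trimmed mean of M values (TMM). Fold changes come from edgeR's quasi-likelihood fit across all tested genes with the mouse as a block, and a gene passed at an adjusted p under 0.05.

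Promoter windows of 300 bases are shown for the 3 members that RefSeq gives a single start site, since these include the one that passed the test and the ones with the largest fold changes. Each runs from 250 bases before the start to 50 after it, on the gene's strand, in build GRCm38.p6. Atp1b1 lies at chr1:164458306-164458605 on the minus strand, Fxyd1 at chr7:31054804-31055103 on the minus strand and Scn4b at chr9:45138374-45138673 on the plus strand. Capitals mark matches, on either strand, to core promoter elements and to motifs of factors active in heart muscle. The core elements searched were the TATA box, spelled TATAAA, the element known by its letters CCAAT, and the GC box, spelled GGGCGG. The factor motifs were AGATAA for GATA factors, GGAATG for TEAD factors, TGANTCA for AP-1, and the MEF2 motif by name. Matches of different motifs did not overlap in these windows.
Atp1b1: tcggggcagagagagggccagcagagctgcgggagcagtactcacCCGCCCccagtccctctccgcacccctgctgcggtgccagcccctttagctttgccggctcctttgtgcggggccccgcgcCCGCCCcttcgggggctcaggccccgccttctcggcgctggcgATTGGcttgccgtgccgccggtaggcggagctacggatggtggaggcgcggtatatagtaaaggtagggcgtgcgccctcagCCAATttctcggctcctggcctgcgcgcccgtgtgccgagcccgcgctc
Fxyd1: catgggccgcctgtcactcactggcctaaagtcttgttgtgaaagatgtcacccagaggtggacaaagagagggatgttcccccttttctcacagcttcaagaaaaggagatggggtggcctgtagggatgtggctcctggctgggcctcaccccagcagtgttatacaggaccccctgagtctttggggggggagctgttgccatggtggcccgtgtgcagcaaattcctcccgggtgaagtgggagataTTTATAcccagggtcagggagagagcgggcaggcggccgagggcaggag
Scn4b: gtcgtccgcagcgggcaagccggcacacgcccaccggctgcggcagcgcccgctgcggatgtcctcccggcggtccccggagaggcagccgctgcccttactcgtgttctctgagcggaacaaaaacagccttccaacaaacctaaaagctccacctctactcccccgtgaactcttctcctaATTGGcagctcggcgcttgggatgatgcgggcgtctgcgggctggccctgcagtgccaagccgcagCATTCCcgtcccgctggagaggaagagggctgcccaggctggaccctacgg
The Atp1b1 window held 2 GC boxes and 2 CCAAT boxes, the Scn4b window 1 CCAAT box and 1 TEAD match, and the Fxyd1 window 1 TATA match, on the strand opposite to the gene. Among 32851 windows of this length, 35.7% held a GC box, 37.4% a CCAAT box, 14.7% a TEAD match and 13.6% a TATA match. The windows of Atp1b1 and Scn4b were rich in G and C (71.0% and 66.3%) and that of Fxyd1 less so (58.7%). Fgf13 and Ank2 have 4 windows each. One of those of Fgf13 held 2 MEF2 matches, and 3.69% of all windows hold at least 1. No factor binding was measured, and the matches are a description of these letters alone.

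Atp1b1, the beta subunit of the sodium pump, was the 1 member of 5 that passed the test, and it was higher in GFP+ cells. Over all tested genes 0.858% passed in either direction, 0.685% as higher and 0.173% as lower. Taking the mice in the order 17C1, 17C2, 21A4, 21A5, 21A7 here and below, Atp1b1 reached 369.6, 364, 289.8, 389.7 and 86.3 CPM in GFP+ libraries. Their GFP- libraries held 146, 137, 72.2, 66.0 and 26.1 CPM. Every mouse had the higher TMM-scaled value in its GFP+ library. The GFP+ library of 21A7 lay below the GFP- libraries of the 17C mice, so the groups overlapped. In 21A7 the direction depended on the scaling, with TMM factors of 0.241 (GFP+) and 3.31 (GFP-). Its counts were 809 in GFP+ and 1443 in GFP-, and its log2 difference per total count was −2.04. The mean was 299.8 ± 125 CPM in GFP+ and 89.4 ± 50.8 CPM in GFP- libraries (SD, n = 5 each). The log2 fold change was 1.81 ± 0.28 (SE, edgeR adjusted p = 0.0373), larger than 98.1% of those of all tested genes. Being higher in 5 of 5 mice was shared by 9.14% of the tested genes.

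Atp1b1 passed in each identifier series taken alone. It rose by 1.38 ± 0.26 on the log2 scale in the 17C mice (edgeR adjusted p = 0.000866) and by 2.12 ± 0.27 in the 21A mice (0.00587). Here and below, the fit of the 17C series rests on 2 mice and that of the 21A series on 3. Their SE and p therefore lean on spread shared across genes more than on spread between mice. In these series 6.08% and 2.67% of tested genes passed as higher. The difference between the series was −0.72 ± 0.38 (17C minus 21A) and did not pass (adjusted p = 0.266). Without the mouse as a block the fold change was 1.75 ± 0.53 with an edgeR adjusted p of 0.360, and 0.0825% of tested genes passed, all of them as higher. With a score built from the markers of non-muscle cells (fibroblast, macrophage, endothelial, mural) in the fit it was 1.37 (adjusted p = 0.0765). The call was also lost without mouse 17C2 (adjusted p = 0.124), 21A4 (0.242), 21A5 (0.143) or 21A7 (0.0539), with fold changes of 1.60 to 1.92. DESeq2 (1.79, adjusted p = 6.48e-10) and limma voom (1.78, 0.00469) called it with the same block. Reads of Nme7 could be mistaken for Atp1b1 where strand is not kept, as the exons of the 2 genes share 575 bases on opposite strands in GENCODE M21. Nme7 had 400 counts in all libraries together, against 32558 for Atp1b1.

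**Figure D1:**
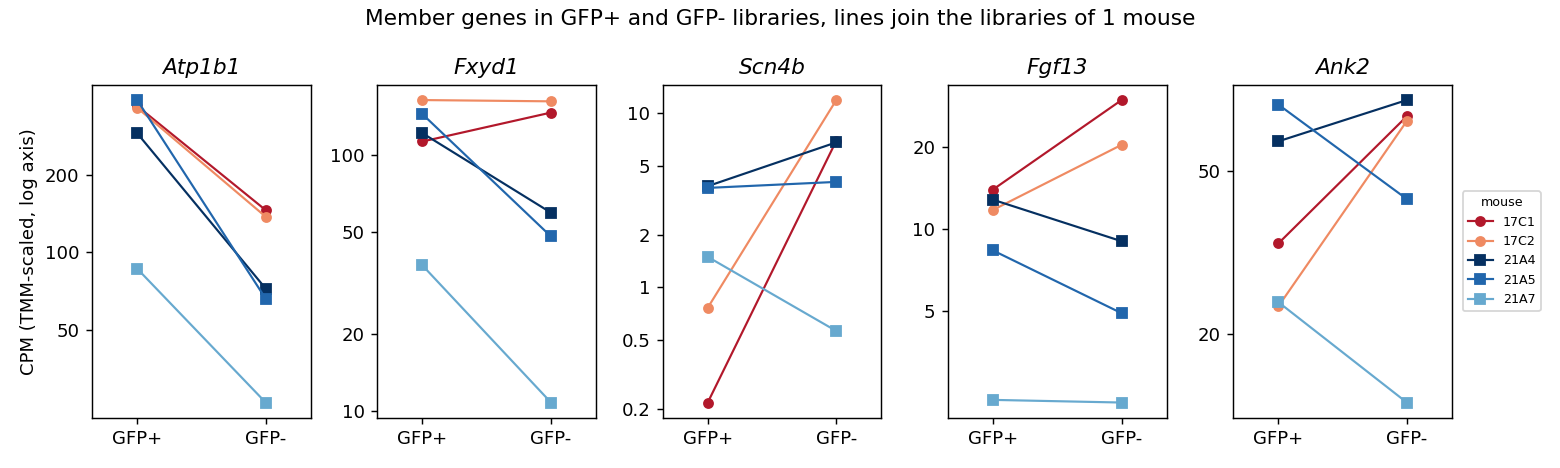
CPM (log axis, TMM-scaled) of the 5 genes in the GFP+ and GFP- library of each mouse, with a line joining the libraries of 1 mouse (circles 17C, squares 21A). All 5 lines of Atp1b1 run higher on the GFP+ side, while those of the other genes cross, and mouse 21A7 is lowest for Atp1b1, Fxyd1 and Fgf13 in both groups.

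Fxyd1, the phospholemman gene whose product restrains the pump, was higher in the GFP+ libraries of 4 of 5 mice without passing over all of them. It stood at 113, 165, 122, 145 and 37.1 CPM in the GFP+ libraries. The GFP- libraries of these mice held 147, 163, 59.7, 48.2 and 10.8 CPM. The 21A mice all had the higher value in GFP+ cells, 17C2 had nearly equal values and 17C1 the lower value in GFP+ cells. The mean was 116 ± 48.6 CPM in GFP+ and 85.7 ± 65.9 CPM in GFP- libraries (SD, n = 5 each), with a log2 fold change of 0.81 ± 0.37 (edgeR adjusted p = 0.339). With the marker score in the fit it was 0.13 ± 0.39 (0.883). In the 21A mice alone it rose by 1.49 ± 0.24 (edgeR adjusted p = 0.0114), whereas in the 17C mice it was at −0.17 ± 0.26 (0.770). The difference between the series passed (−1.64 ± 0.36, edgeR adjusted p = 0.0327).

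Scn4b, a beta subunit of the sodium channel, had the lowest counts of the 5 genes and the widest spread of differences. Its counts were 2, 8, 48, 81 and 14 in the GFP+ libraries, against 116, 151, 356, 182 and 31 in the GFP- libraries of the same mice. In CPM this was 0.217, 0.762, 3.81, 3.72 and 1.49 in GFP+ libraries, against 6.94, 11.9, 6.79, 4.03 and 0.560 in GFP- libraries. The value was lower in the GFP+ library of 4 mice and higher in that of 21A7. The 2 counts in 17C1 carry an exact 95% Poisson interval of 0.242 to 7.22, which covers counting error only. The mean was 2.0 ± 1.67 CPM in GFP+ and 6.04 ± 4.17 CPM in GFP- libraries (SD, n = 5 each). The log2 fold change over all mice was −1.44 ± 0.94 (edgeR adjusted p = 0.521), and −3.35 ± 1.19 with the marker score in the fit (0.172).

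In the 17C mice (n = 2) Scn4b fell by 4.32 ± 0.79 on the log2 scale (edgeR adjusted p = 0.000592). There 7.52% of tested genes passed as lower. In the 21A mice it was at 0.09 ± 0.54 (0.943). The difference between the series was −4.42 ± 0.96 (edgeR adjusted p = 0.0320). Within the single mice the log2 differences were −4.55 (17C1), −3.83 (17C2), −0.82 (21A4), −0.11 (21A5) and 1.30 (21A7). Both 17C values thus lay below those of the 21A mice. The share of all tested genes that separates the series in this way was not computed.

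Fgf13, a fibroblast growth factor homologous factor that binds sodium channels inside the cell, passed in no series. It stood at 13.9, 11.7, 12.8, 8.31 and 2.35 CPM in the GFP+ libraries, against 29.7, 20.3, 8.99, 4.89 and 2.30 CPM in their GFP- libraries. Values were lower in GFP+ cells of both 17C mice and slightly to moderately higher in those of the 21A mice. The mean was 9.81 ± 4.67 CPM in GFP+ and 13.2 ± 11.5 CPM in GFP- libraries (SD, n = 5 each), with a log2 fold change of −0.12 ± 0.33 (edgeR adjusted p = 0.904). With the marker score in the fit it was −0.86 ± 0.31 (0.179). It was −0.93 ± 0.35 in the 17C mice (0.0878) and 0.48 ± 0.33 in the 21A mice (0.424). The difference between the series did not pass (−1.41 ± 0.43, 0.0763).

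Ank2, which encodes the anchoring protein ankyrin-B, was lower in GFP+ cells of the 17C mice. It stood at 33.3, 23.3, 59.2, 72.9 and 23.9 CPM in the GFP+ libraries, against 68.3, 66.5, 74.8, 42.8 and 13.6 CPM in their GFP- libraries. Both 17C mice and 21A4 had the lower value in GFP+ cells, and 21A5 and 21A7 the higher one. The mean was 42.5 ± 22.4 CPM in GFP+ and 53.2 ± 25.2 CPM in GFP- libraries (SD, n = 5 each), and the log2 fold change −0.26 ± 0.38 did not pass (edgeR adjusted p = 0.807), nor did the −0.87 ± 0.45 of the fit with the marker score (0.312). In the 17C mice (n = 2) it fell by 1.26 ± 0.28 (edgeR adjusted p = 0.00301), and in the 21A mice it was at 0.44 ± 0.27 (0.371). The difference between the series passed (−1.69 ± 0.42, edgeR adjusted p = 0.0412).

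The difference between the series thus passed for 3 of the 5 members (Scn4b, Fxyd1 and Ank2), against 7.62% of all tested genes. Because the members were chosen with earlier results of these data known, these shares do not test the members as a group. For each of the 5, including the 2 that did not pass, the difference between the series was below 0 with TMM. There the median of all tested genes was −0.01. The share of all tested genes below 0 was not computed. The 5 signs are not separate results, as differences within mice ran together between members (Pearson's r from 0.664 to 0.989). The 5 were also below 0 relative to the median of all tested genes with library totals or with scaling to the summed counts of the 19 adult sarcomere genes. Other measures differed between the series as well. Mitochondrial genes held 47.7% to 49.3% of GFP+ against 58.1% to 61.9% of GFP- counts in the 17C mice, and 35.7% to 91.2% against 9.20% to 35.7% in the 21A mice. Adult sarcomere genes held a smaller share of non-mitochondrial counts in GFP+ libraries of the 17C mice (3.93% and 5.83% against 9.32% and 10.3%) and a larger one in those of the 21A mice (12.2%, 11.3% and 3.86% against 11.7%, 7.11% and 1.80%). Fibroblast markers held 0.0377% and 0.0518% in GFP+ against 0.0235% and 0.0495% in GFP- libraries of the 17C mice, and 0.386% to 1.41% against 2.02% to 4.36% in those of the 21A mice. The part of these measures in the difference between the series was not tested, beyond the scalings given here. The calls were lost under some scalings and without some single mice. Over the other settings run, 9 for Scn4b and 10 each for Fxyd1 and Ank2, the edgeR adjusted p lay between 0.000425 and 0.373 for Scn4b, 0.00258 and 0.766 for Fxyd1, and 0.00176 and 0.777 for Ank2. Sarcomere scaling moved the median difference between the series over all tested genes to 1.86, and library totals to 2.15, against −0.01 with TMM, so all genes shifted together. Taking off the median removes such a common shift by construction, so the near-equal values that follow do not test the scaling. Relative to those medians Scn4b stood at −4.49 with sarcomere scaling, −4.48 with library totals and −4.41 with TMM. In the same order Fxyd1 stood at −1.64, −1.58 and −1.64, Ank2 at −1.68, −1.60 and −1.68, Fgf13 at −1.40, −1.41 and −1.40, and Atp1b1 at −0.72, −0.70 and −0.72. Without mouse 17C1 or 21A5 none of the 3 passed (adjusted p 0.110 to 0.171), and 0 and 1 of all genes did with edgeR (2316 and 2184 at an unadjusted p under 0.05).

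The levels were therefore also set against the summed counts of the sarcomere genes within each library, which needs no scaling between libraries. This sum is only a rough measure of heart muscle RNA, as its genes did not move together. In mouse 17C1 Myh6 had 28262 counts in GFP+ against 310155 in GFP-, and Ttn 60385 against 52998. Pdlim5, a gene of this sum, itself passed as higher (1.46, edgeR adjusted p = 0.0418). On this scale Atp1b1 was higher in the GFP+ library of all 5 mice, by 2.26, 2.14, 1.53, 1.42 and 0.22 (log2). Fxyd1 was higher in all 5 as well, by 0.55, 0.75, 0.56, 0.45 and 0.28 in the same order of mice. Of all tested genes 1.48% were higher in 5 of 5 mice on this scale and 8.84% lower. Scn4b had differences of −3.50, −3.07, −1.29, −1.25 and −0.03, and Ank2 of −0.11, −0.77, −0.81, −0.37 and −0.68, so that both were lower in all 5 mice. Fgf13 was lower in 4 of 5, between −1.42 in 21A7 and 0.04 in 21A4. A fit of all genes scaled in this way gave 0 calls with edgeR (989 genes at an unadjusted p under 0.05), with 1.53 ± 0.43 for Atp1b1 (adjusted p = 0.363) and −1.88 ± 0.78 for Scn4b (0.567). That scaling moved the median log2 fold change of all genes to −0.36, and scaling by library totals to −1.15, against −0.04 with TMM. Values relative to those medians are near equal by construction, since the subtraction undoes the scaling, and do not test it. Atp1b1 stood at 1.89, 1.91 and 1.84, and Fxyd1 at 0.88, 0.81 and 0.85. Scn4b stood at −1.52, −1.62 and −1.40, Ank2 at −0.19, −0.27 and −0.22, and Fgf13 at −0.03, −0.04 and −0.08. Before subtraction of the median, Fxyd1 was at −0.34 with library totals, the opposite sign to its TMM value.

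**Figure D2:**
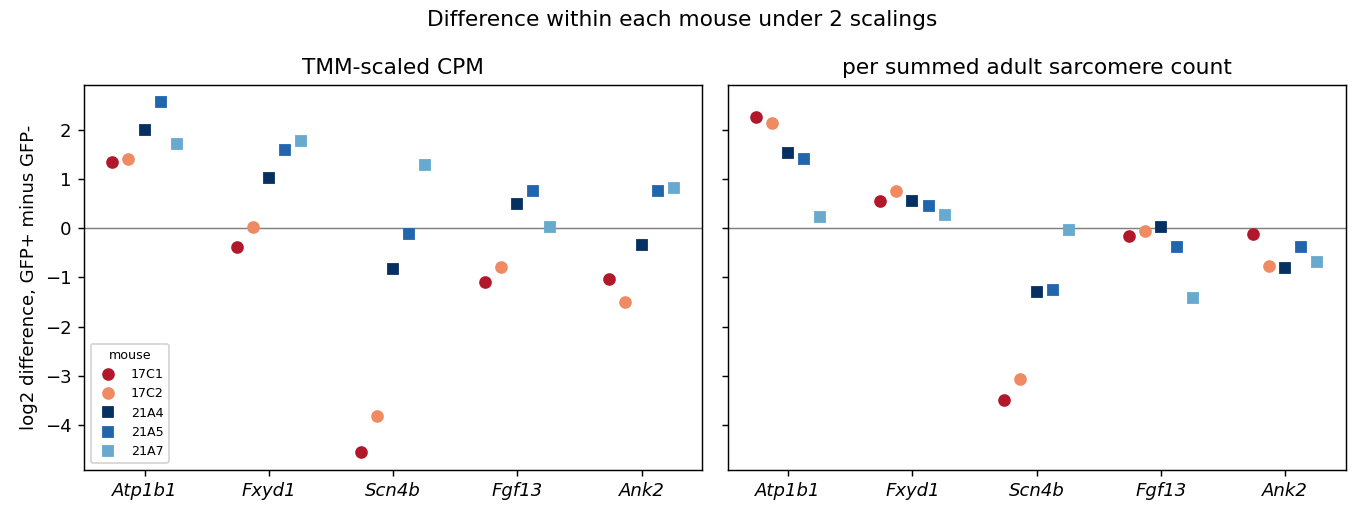
Log2 difference between the GFP+ and the GFP- library of each mouse for the 5 genes, from TMM-scaled CPM (left) and per summed adult sarcomere count (right), with 0 as a grey line. With TMM the 17C mice (circles) lie below the 21A mice (squares) for each gene, a separation not counted over all tested genes. Per sarcomere count Atp1b1 and Fxyd1 lie above 0 and Scn4b and Ank2 below 0 in all 5 mice.

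The ratio of 2 genes within a library also needs no scaling between libraries. For the 2 ankyrins, there were 123, 51.5, 97.1, 134 and 129 Ank2 counts per 100 of Ank3 in the GFP+ libraries, against 274, 197, 269, 232 and 193 in the GFP- libraries. No GFP+ library reached the lowest GFP- value. The log2 ratio differed by −1.19 ± 0.54 (SD, n = 5 mice), between −1.93 and −0.58, and was lower in 5 of 5 mice. The two-sided exact sign-flip p was 0.0625, the smallest that 5 pairs allow (0.0625 adjusted over the 5 ratios computed). The mean difference was −1.54 in the 17C mice and −0.95 in the 21A mice. A lower ratio to Ank3 in 5 of 5 mice was found for 37.4% of tested genes, and one without overlap for 5.51%. Ank3 stood at 41.3 ± 18.0 CPM in GFP+ and 22.4 ± 10.2 CPM in GFP- libraries (log2 fold change 0.93 ± 0.27, adjusted p = 0.163), higher in 5 of 5 mice. Without pairing, an exact permutation test over 252 regroupings of the 10 libraries gave an adjusted p of 0.0132 for this ratio. Its unadjusted p of 0.00794 is the smallest this permutation test allows and follows from the lack of overlap. That test treats the 2 libraries of a mouse as independent, which they are not.

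**Figure D3:**
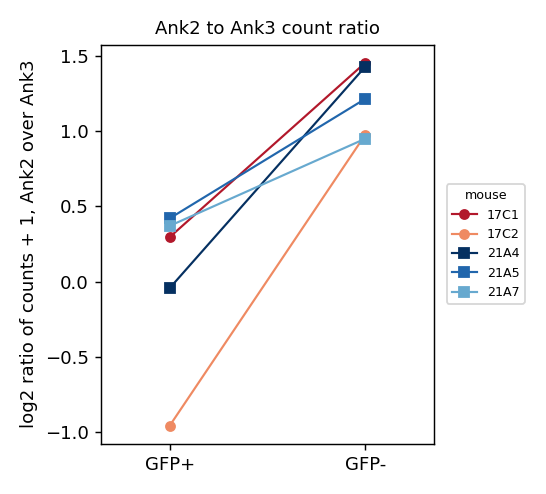
Log2 ratio of Ank2 to Ank3 (counts + 1) in the GFP+ and GFP- library of each mouse, with a line joining the libraries of 1 mouse (circles 17C, squares 21A). All 5 lines run lower on the GFP+ side, and every GFP+ library lies below every GFP- library.

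Per length of their exons (GENCODE M21), the order of the 5 genes differed between the groups at the top. Atp1b1 averaged 97.3 ± 40.6 CPM per kilobase in GFP+ and 29.0 ± 16.5 in GFP- libraries, and Fxyd1 53.3 ± 22.2 and 39.2 ± 30.2 in the same order (SD, n = 5 each). Atp1b1 stood above Fxyd1 in all 5 GFP+ libraries, and below it in 4 of 5 GFP- libraries. In the GFP- group the spreads of the 2 genes over libraries overlapped, although both were read in the same libraries. Fgf13 (2.44 ± 1.16 CPM per kilobase in GFP+ and 3.29 ± 2.86 in GFP- libraries) and Ank2 (1.22 ± 0.64 and 1.52 ± 0.72 in the same order) had overlapping spreads. Their order differed between libraries. Scn4b came last by its mean, at 0.401 ± 0.336 in GFP+ and 1.21 ± 0.838 in GFP- libraries, and was within the spread of Ank2 in the GFP- group. Within single libraries it stood above Ank2 only in the GFP- library of 17C2. Lengths from another annotation than the one used for counting make this order approximate.

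The genes around the members were taken from 8 lists of sodium channel, pump, ankyrin and exchanger genes, 76 in all, of which 50 were tested. Atp1b1 was the 1 gene of these 50 that passed over all mice. Among the 50, 26 log2 fold changes were above 0 and 24 below, with a median of 0.08 against −0.04 for all tested genes. At an unadjusted edgeR p under 0.05, 11 of the 50 were higher and 2 lower. Of all 12115 tested genes, 938 were higher and 920 lower at that threshold, the background for the unadjusted counts below. Of the pump subunits 5 of 8 were tested, and 1 passed. Of the FXYD genes (3 of 7 tested, 0 passed, 0 also at an unadjusted p under 0.05), Fxyd5 was at −0.54 ± 0.50 (0.670).

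Of the pore-forming alpha subunits (3 of 10 tested, 0 passed with edgeR and 1 at an unadjusted p under 0.05), the skeletal muscle channel Scn4a was at −1.09 ± 0.66 (edgeR adjusted p = 0.486). Of the beta subunits 3 of 4 were tested and 0 passed (1 at an unadjusted p under 0.05, as higher). DESeq2 called 7 of the 50 genes with the same block, all higher, where it called 3.75% of all tested genes as higher and 3.64% as lower. Limma voom called 3, all higher, where it called 2.04% of all genes as higher and 1.63% as lower. Fgf13 was the only 1 of the 4 homologous factor genes with enough reads to be tested.

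Among 13 tested channel anchors and regulators 0 passed (5 at an unadjusted p under 0.05, all higher). The gap junction gene Gja1 stood at 250.5 ± 68.9 CPM in GFP+ and 178 ± 109 CPM in GFP- libraries (0.70 ± 0.30, adjusted p = 0.324). Among 17 genes of ankyrin-B and its partners 0 passed (3 higher and 1 lower at an unadjusted p under 0.05). The spectrin gene Sptbn1 had 375 ± 178 CPM in GFP+ and 399 ± 159 CPM in GFP- libraries (−0.14 ± 0.25, 0.844). The sodium-calcium exchanger Slc8a1 had 413 ± 157 CPM in GFP+ and 280.3 ± 212 CPM in GFP- libraries (0.84 ± 0.34, 0.294). Of 5 tested genes of other sodium entry 0 passed (0 also at an unadjusted p under 0.05), with the bicarbonate cotransporter Slc4a4 at −0.00065 ± 0.29 (0.999). Rangrf was listed at 0 in every library.

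Within the series more of these genes passed, as did more of all genes. In the 17C mice 4 were higher and 6 lower of 47 tested, where 6.08% of all tested genes passed as higher and 7.52% as lower, among them Scn4a as lower (−2.93 ± 0.58, edgeR adjusted p = 0.00128). In the 21A mice 12 were higher and 2 lower of 54, where 2.67% of all tested genes passed as higher and 4.05% as lower, among them Slc8a1 (1.40 ± 0.27, edgeR adjusted p = 0.0177) and Gja1 (1.15 ± 0.26, 0.0314) as higher and Fxyd5 (−1.33 ± 0.24, 0.0140) as lower. Atp1b1 was among the genes that passed as higher in both series.

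**Figure D4:**
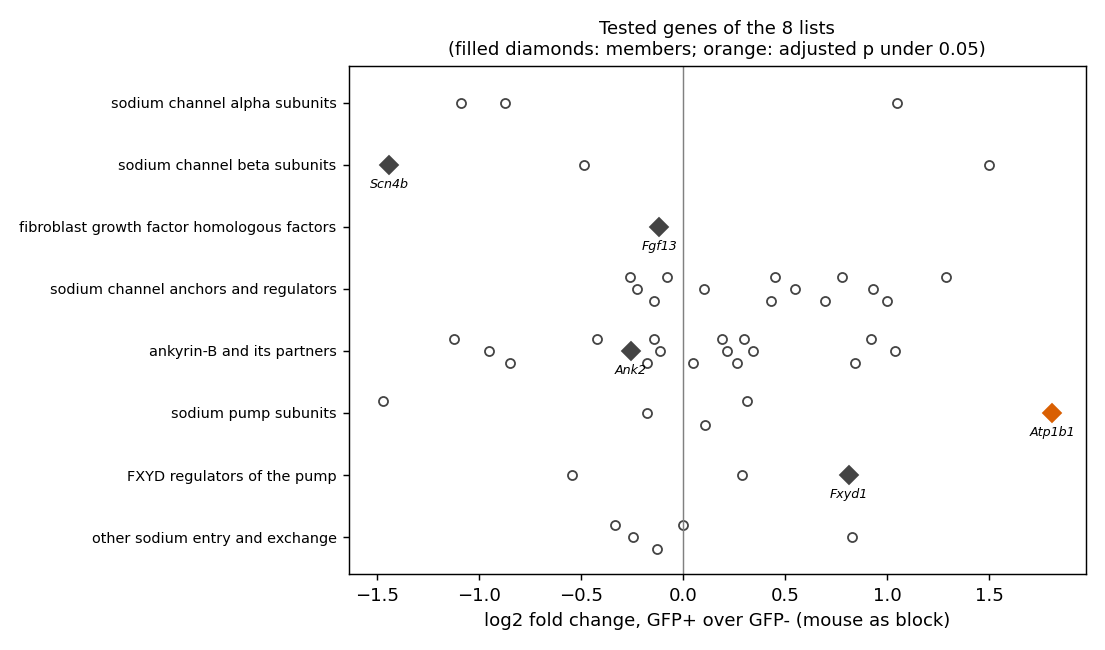
Log2 fold change of the 50 tested genes by list, GFP+ over GFP- with the mouse as a block, with members as labelled diamonds, other genes as open circles spread vertically to keep them apart, and genes past an adjusted p of 0.05 in orange. Atp1b1 at 1.81 is the only orange point, and Scn4b at −1.44 is the lowest of the members.

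The genes whose levels ran closest to each member over the 10 libraries differed between members. They were taken from 4685 tested genes with a mean of at least 10 CPM, by Pearson's r of log2 CPM, as a description of libraries that share depth and composition. For Atp1b1 they were the glycogenin gene Gyg (r = 0.988), the laminin receptor subunit Itga7 (0.986) and the Z-disc adaptor Pdlim5 (0.982). For Fxyd1 they were cardiac troponin C (Tnnc1, 0.995) and the calcineurin regulator Rcan2 (0.990). For Scn4b they were Hrc, a calcium-binding protein of the sarcoplasmic reticulum (0.982), the autophagy kinase Ulk1 (0.966) and Pitpnc1 (0.965). Fgf13 ran closest to the mitochondrial ribosomal protein genes Mrpl55 (0.987) and Mrpl50 (0.978) and to Dhrs11 (0.978). Ank2 ran closest to the natriuretic peptide receptor Npr2 (0.958), the costamere protein gene Cmya5 (0.956) and the formin Fhod3 (0.951). Among the members themselves Fxyd1 ran with Atp1b1 (r = 0.866) and with Fgf13 (0.862) and Scn4b with Ank2 (0.798) most closely over the 10 libraries.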

How the data were processed

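Per the labels' protocols, total RNA of the 10 libraries (a GFP+ and a GFP- one from each of 5 mice) was pre-amplified as cDNA with a SMARTer kit and tagged with Nextera XT, which keeps no strand and adds no molecular identifier named in the labels. The authors deposited whole read counts for each gene without normalization. The submitters' processing notes list build GRCm39 and the tools featureCounts, Subread 2.0.1, STAR 2.7.9a and fastp 0.23.1. How reads with several mapping positions were counted, and with which annotation, is not given in the sources used here.

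Counts were tested with edgeR 4.0.16 (under R 4.3.3, two-sided quasi-likelihood test with TMM and filterByExpr, Benjamini-Hochberg over 12115 genes) with the mouse as a block. Libraries of 1 mouse carry the same identifier, and their deviations from the group means correlated with r = 0.292, 0.397, 0.161, 0.0741 and 0.637 (17C1, 17C2, 21A4, 21A5, 21A7). The difference between series was an interaction term in a separate edgeR fit, which kept the mouse block and the group. Each SE was taken as the size of the log2 fold change over the root of its F value. Ratios used counts + 1 and likeness log2 CPM with a prior count of 2. Alternatives were DESeq2 1.42.0, limma 3.58.1 (voom), no block, other scalings and filters, a marker score, each series alone and each mouse left out. Sequences are from RefSeq (GRCm38.p6), with no coordinate converted. In simulated counts of this design, a true log2 change of 2 was called for 36.6% of 93 genes and one of 1 for 1.87% of 107.

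The members and lists were chosen with earlier results of these data known. Named were the 5 members, each list's genes past the threshold and its 2 most abundant, and for each member the 3 genes of highest r; Ank3 is named as a ratio partner, and Rangrf and Nme7 after their values were seen. Results of some genes that this rule names, and 4 of the 5 ratios, are not reported here.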

Additional observations from a re-analysis of the deposited data

Results flagged for a closer look

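Of 30 groups of 5 values checked (levels, ratios and differences within mice), 2 held a sample far from the others, where chance gives about 1 in 20. Both were the GFP+ library of mouse 21A7, the library with the largest mitochondrial share (91.2%). Its log2 CPM of Atp1b1 was 6.43 and of Fxyd1 5.22, the lowest of the GFP+ libraries in each case.

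The change between GFP+ and GFP- cells differed between the 17C and 21A mice by −4.42 for Scn4b, −1.64 for Fxyd1 and −1.69 for Ank2 (log2, 17C minus 21A, edgeR interaction adjusted p 0.0320, 0.0327 and 0.0412). The series differ in their title wording, and what else differed between them is not given in the sources used here.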

How the results depend on the processing

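The call of Atp1b1 was lost without the replicate block, at a log2 fold change of 1.75. It was also lost with library totals (0.76), with sarcomere scaling (1.53) and with the marker score (1.37), and over single mice left out lay between 1.60 and 1.93 (the causes were not tested). The fitted log2 fold change of Atp1b1 was above 0 in all settings run. Within mouse 21A7, however, its difference per total count was −2.04, while the other mice were above 0 on that scale. The TMM factors of the 21A7 libraries were 0.241 (GFP+) and 3.31 (GFP-). Over single mice left out, Scn4b lay between −2.16 and −0.74, Fgf13 between −0.37 and 0.15 (0.15 without 17C1, 0.07 without 17C2), Fxyd1 between 0.56 and 1.12, and Ank2 between −0.55 and 0.0664 (without 17C2). In the 17C mice Scn4b (−4.32) and Ank2 (−1.26) passed and Fxyd1 was at −0.17. In the 21A mice Fxyd1 (1.49) passed, with Scn4b at 0.0898, Fgf13 at 0.48 and Ank2 at 0.44. Fxyd1 was at −0.34 with library totals.

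Against 83 genes higher and 21 lower with edgeR and the replicate block, there were 10 and 0 without it (991 at an unadjusted p under 0.05), 454 and 441 with DESeq2, and 247 and 197 with limma voom. No filter gave 360 and 458, library totals 5 higher, and the stricter filter 32 lower. Sarcomere scaling gave 0 and 0 (989 unadjusted), the marker score 3 and 0 (2416), the 17C mice 675 and 835, and the 21A mice 353 and 536. Leaving out 1 mouse gave 0 to 99 higher and 0 to 74 lower.

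The difference between series passed for 923 genes. It did for 473 with library totals, 4737 with sarcomere scaling, 1733 with no filter and 0 to 1035 without 1 mouse. These alternatives were chosen after seeing the data. Library totals and sarcomere scaling moved its median over all genes to 2.15 and 1.86. Before that shift is taken off, Fgf13 stood at 0.74 and 0.46, Atp1b1 at 1.44 and 1.14, Fxyd1 at 0.56 and 0.22, and Ank2 at 0.55 and 0.18 under these scalings. After it, all were below 0 as with TMM, since taking off the median undoes the scaling by construction.

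The Ank2 to Ank3 ratio difference was −1.19, and over single mice left out lay between −1.34 and −1.0. It passed only in the exact permutation test that ignores the pairing by mouse, at the smallest p that test allows. Depth limits Scn4b most, with 2 to 356 counts per library.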
